A study of Mus musculus with 6 samples.

Results

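Inflammatory cytokines and colony-stimulating factors are secreted proteins that immune, epithelial and stromal cells use to raise, sustain and end inflammation. IL-1 and TNF act early and switch on many other cytokine genes. IL-6, LIF and OSM bind receptors that share the gp130 chain and act through JAK and STAT3. The colony-stimulating factors control the growth and survival of macrophages and neutrophils, and in the lung GM-CSF is required for alveolar macrophages to mature and clear surfactant. IL-33 is stored in the nucleus of epithelial and stromal cells and acts as an alarm signal when it is released. The 10 genes described here were chosen by name, with earlier results of these data known, and were Il6, Lif, Osm, Il1a, Il1b, Il33, Tnf, Csf1, Csf2 and Csf3. All 10 were on the array, through 14 probe sets that the platform annotation assigns to exactly 1 gene, out of 18193 genes and 45037 probe sets in all. A gene was read on its brightest probe set, the one with the highest mean over the 6 arrays. For the 10 genes every other probe set is given as well.

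RNA from whole lungs of 3 LC-HFD mice and 3 LC-RD mice was hybridized to Affymetrix arrays (Mouse Genome 430 2.0), each mouse on an array of its own. Standard errors and p-values of the limma test rest on the spread between 3 mice a group, drawn toward a spread shared by all probe sets. Mice of both groups carried the transgenes CC10-rtTA and tet-O-EGFR-L858R, so that doxycycline induced a mutant human EGFR in cells in which the CC10 promoter drives the transactivator, and both groups received doxycycline. They were males on a C57BL/6 background, 6 weeks old at the start (6 to 8 weeks in the methods), and by the study's description of its groups they ate a high-fat diet (LC-HFD, labelled HFD+Dox) or a regular diet (LC-RD, labelled RD+Dox) for 2 weeks, and then kept to it for 8 weeks of doxycycline. GEO's labels give another schedule, in which high-fat feeding lasted until 8 weeks and doxycycline feeding for 7 weeks. Doxycycline was mixed into the food at 625 ppm and dissolved in drinking water at 2 mg/ml, and fat supplied 60% of the energy of the high-fat food. No group without doxycycline was analysed here, so each difference is one between diets in lungs with the induced transgene.

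Values are log2 probe set levels, and 4 was taken as the limit below which a mean is near background. The median log2 value was between 4.79 and 4.84 on every array. Sftpc, Sftpb, Scgb1a1 and Ager, which mark lung epithelium, lay between 12.5 and 13.8 in both groups. Control probe sets also differed between the groups of arrays. Hybridization controls read 11.5 on all LC-HFD arrays and 10.0 on all LC-RD arrays, and 18S rRNA 7.57 to 7.69 in LC-HFD and 12.5 in LC-RD. For 4 control genes the 3' minus 5' signal, which grows as RNA is degraded, was 1.58 to 1.70 in LC-HFD and 1.70 to 1.76 in LC-RD without overlap. Diet and array handling therefore cannot be told apart in any difference below. In whole lung, fewer cells of a type and less RNA per cell cannot be told apart either.

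The DNA just before the start of a cytokine gene often holds sites for NF-κB and AP-1, the factors that most inflammatory signals reach. The promoters of 4 of the genes that were lower in LC-HFD lungs are shown so that they can be set beside the values below. Each is the 250 bases before the annotated start, from RefSeq on GRCm38.p6, written 5′ to 3′ on the gene's strand, with matches on either strand to AP-1 (TGANTCA) and κB (GGG, any 2 bases, then TTTCC) in capitals.
Csf2 (chr11:54249900-54250149, minus strand): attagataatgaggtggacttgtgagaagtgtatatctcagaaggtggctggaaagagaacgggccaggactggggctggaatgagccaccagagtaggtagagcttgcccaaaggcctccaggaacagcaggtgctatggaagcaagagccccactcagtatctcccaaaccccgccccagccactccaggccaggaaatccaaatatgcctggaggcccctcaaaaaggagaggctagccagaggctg
Il6 (chr5:30012864-30013113, plus strand): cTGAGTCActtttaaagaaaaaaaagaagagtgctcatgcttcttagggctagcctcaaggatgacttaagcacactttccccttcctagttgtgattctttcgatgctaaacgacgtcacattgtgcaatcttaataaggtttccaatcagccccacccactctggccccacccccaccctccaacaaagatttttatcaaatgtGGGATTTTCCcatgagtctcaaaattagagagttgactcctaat
Il1b (chr2:129371140-129371389, minus strand): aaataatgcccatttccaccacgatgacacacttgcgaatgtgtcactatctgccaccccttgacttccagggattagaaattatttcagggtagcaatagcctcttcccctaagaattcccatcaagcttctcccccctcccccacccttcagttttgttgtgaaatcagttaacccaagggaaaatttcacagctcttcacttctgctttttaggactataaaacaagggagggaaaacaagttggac
Lif (chr11:4257318-4257567, plus strand): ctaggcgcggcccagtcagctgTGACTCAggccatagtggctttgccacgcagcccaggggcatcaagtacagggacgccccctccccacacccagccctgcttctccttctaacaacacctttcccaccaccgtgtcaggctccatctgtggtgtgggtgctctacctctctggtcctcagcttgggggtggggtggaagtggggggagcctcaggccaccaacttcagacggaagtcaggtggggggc
Il6 held 1 κB match, GGGATTTTCC, that begins 44 bases before the start, and 1 AP-1 match at 249 bases, and Lif held 1 AP-1 match at 228 bases. Csf2 and Il1b held neither in this window. Sites spelled otherwise, or outside the window, were not searched for in any gene. Of the members that did not pass the test, Il1a held an AP-1 match and Csf1 a κB match, and Tnf and Il33 held neither. Over all 32851 promoter windows of the same length, 6.75% held the AP-1 letters and 1.41% the κB letters. A TATA match (TATAAA, 12.4% of windows) lay 31 bases before the start of Il1b and was not found in the Csf2, Il6 and Lif windows. Of the members that did not pass, Il1a held one at 32 bases and Tnf one at 29 bases. Il33 has 2 annotated starts, with a TATA match at 203 and 29 bases, and Csf1 held none. A match is a string of letters and not a measured binding site, and 8 of the 10 genes had an entry.

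Of the 10 genes, 5 were lower in LC-HFD lungs than in LC-RD lungs (Csf2, Il6, Osm, Il1b and Lif), 0 were higher and 5 did not pass (limma, Benjamini-Hochberg adjusted p under 0.05 over all 45037 probe sets). Across the lead probe sets of all 18193 genes 16.2% were called lower and 11.1% higher, and among all probe sets with a mean log2 value from 4 to 7, where 9 of the 10 lie, 19.8% were called lower and 13.3% higher. Over the 14 probe sets 5 were lower and 0 higher, against 13.6% and 11.3% of all probe sets. The arrays of both groups did not overlap for 6 of the 10 genes, and for 49.1% of all genes. At an unadjusted p under 0.05 Il1a was also higher. By the t-test of the methods 4 were lower and 0 higher. The median log2 difference over the 10 genes was −0.24, against 0.02 over all genes. With a threshold of 2-fold as well, 1 of the 10 was called, Csf2, against 1.07% of all genes called lower in this way, and Il6, Osm, Il1b and Lif lost their calls. The counts of alternatives given for single genes below are of fits judged at the adjusted p alone, without that fold threshold.

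**Figure D1:**
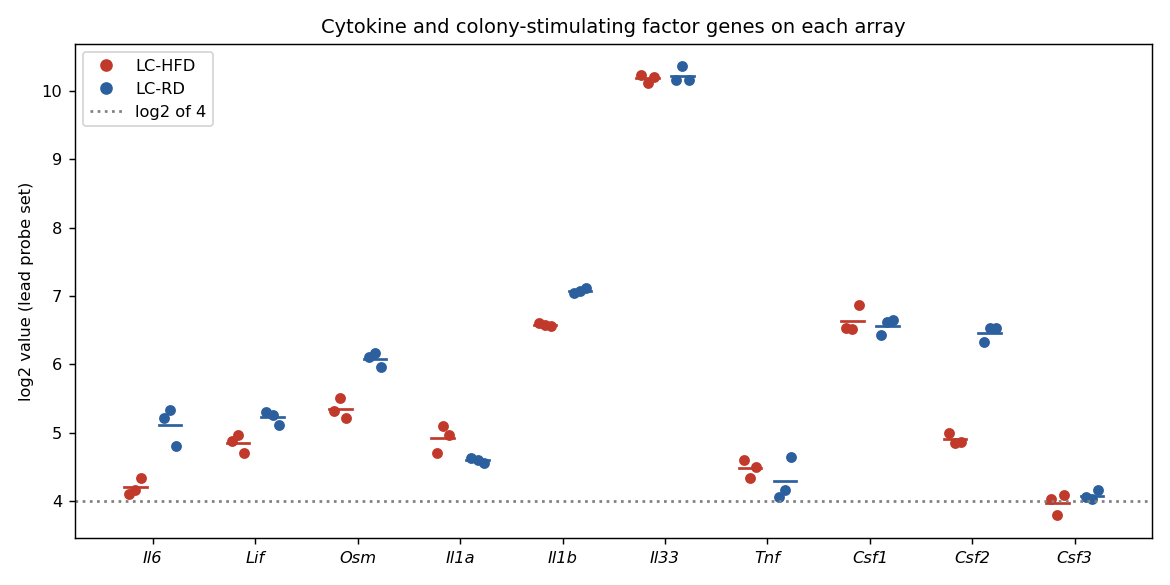
Log2 value (vertical axis) of the lead probe set of each of the 10 genes on every array, LC-HFD in red to the left of LC-RD in blue. Points are single arrays, bars are means of 3, and the dotted line is a log2 of 4. The groups lie apart for Il6, Lif, Osm, Il1a, Il1b and Csf2.

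The largest difference among the 10 genes was that of Csf2, the gene for GM-CSF. It read 4.99, 4.85 and 4.86 on the LC-HFD arrays, against 6.33, 6.52 and 6.53 on the LC-RD arrays. The spread within each group was small beside the gap, and no array of one group came near the other. The log2 difference was −1.56 (standard error 0.0883, 95% interval −1.77 to −1.35, limma adjusted p = 0.000175), so that the LC-RD level was 2.94 times the LC-HFD level. It lay at the 0.144th percentile of the differences of all probe sets tested. Csf2 passed in all 16 alternative fits that tested it, with differences of −1.62 to −1.47 and a highest adjusted p of 0.00541. It has 1 probe set on this array.

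Csf1 and Csf3, the other colony-stimulating factors, did not pass. Csf1 encodes the factor that macrophages and their precursors depend on and has 4 probe sets. On the brightest it read 6.53, 6.51 and 6.87 in LC-HFD and 6.42, 6.62 and 6.65 in LC-RD, and the groups overlapped. The difference was 0.07 (95% interval −0.21 to 0.36, adjusted p = 0.684). The other 3 probe sets gave 0.21, 0.22 and 0.30 with adjusted p of 0.184, 0.134 and 0.0853, and the last of them, an x_at set that may also bind related sequences, had a mean log2 value of 3.92. All 4 estimates were above 0 and none passed, and the brightest became −0.04 without LC-HFD replicate 3.

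Csf3 encodes G-CSF, which drives the production of neutrophils. It read 4.03, 3.79 and 4.09 in LC-HFD and 4.06, 4.02 and 4.16 in LC-RD. Its values lay at the edge of background on all 6 arrays, where folds are uncertain. The difference was −0.11 (95% interval −0.34 to 0.13, limma adjusted p = 0.449) and did not pass.

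Il6, Osm and Lif, the IL-6 family genes among the 10, were all lower in LC-HFD lungs. Il6 read 4.10, 4.16 and 4.34 in LC-HFD and 5.21, 5.33 and 4.80 in LC-RD. LC-RD replicate 3 was the lowest of its group and still above every LC-HFD array. The log2 difference was −0.91 (standard error 0.146, 95% interval −1.25 to −0.57, limma adjusted p = 0.00539). The LC-HFD levels lay just above the background limit. The call was lost when the 3' minus 5' signal entered as covariate (−0.86, adjusted p = 0.0662) and held in the other 15 fits at the adjusted p alone.

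Osm encodes oncostatin M, which macrophages, neutrophils and T cells release and which acts on epithelium and fibroblasts. It read 5.32, 5.51 and 5.22 in LC-HFD, against 6.10, 6.17 and 5.96 in LC-RD. All 3 LC-HFD arrays were below all 3 LC-RD arrays, by more than the range within either group. The log2 difference was −0.73 (standard error 0.101, 95% interval −0.97 to −0.49, limma adjusted p = 0.00327), and it passed in all 16 alternative fits at the adjusted p alone.

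Lif, which encodes leukemia inhibitory factor, lies next to Osm on chromosome 11 with 0 annotated genes between them. On its brighter probe set it read 4.87, 4.97 and 4.70 in LC-HFD and 5.30, 5.25 and 5.11 in LC-RD. The groups were apart, but the gap between the nearest arrays was small. The difference was −0.37 (standard error 0.0972, 95% interval −0.60 to −0.15, limma adjusted p = 0.0303). Its other probe set, near background with a mean of 3.32, gave 0.06 (adjusted p = 0.827). The call for Lif had the highest adjusted p of the 5 and was lost in 7 of 16 alternatives, among them leaving out LC-HFD replicate 1 (adjusted p = 0.0525) or 3 (0.0708), or LC-RD replicate 1 (0.112) or 2 (0.104). The other alternatives that lost it were the t-test of the methods (0.0762), the 3' minus 5' covariate (0.0593) and the median over both probe sets (−0.16, adjusted p = 0.306).

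Of the IL-1 genes, Il1b passed and Il1a did not. Il1b encodes IL-1β, which monocytes, macrophages and neutrophils make as an inactive precursor. It read 6.61, 6.57 and 6.56 in LC-HFD, against 7.05, 7.07 and 7.12 in LC-RD. The arrays of each group lay close together, with an SD of 0.0226 in LC-HFD and 0.0372 in LC-RD. The log2 difference was −0.50 (standard error 0.0681, 95% interval −0.66 to −0.34, limma adjusted p = 0.00307), and all 17 alternative fits kept the call at the adjusted p alone.

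Il1a encodes IL-1α, an alarm cytokine that dying cells release in active form, and is near Il1b on chromosome 2 with 0 protein-coding genes between them. It read 4.70, 5.10 and 4.96 in LC-HFD, and in LC-RD its lowest value was 4.56 and its highest 4.63. The LC-HFD arrays were all above the LC-RD arrays, LC-HFD replicate 1 by little. The difference was 0.33 (95% interval 0.07 to 0.58) and did not pass (limma adjusted p = 0.0700). It passed in 4 of 16 alternatives, one of them without LC-HFD replicate 1 (0.44, adjusted p = 0.0155). Within an array, the log2 level of Il1a minus that of Il1b was −1.91, −1.47 and −1.60 in LC-HFD and −2.42, −2.47 and −2.56 in LC-RD. This pair was chosen after its values were seen and is given with no test.

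Il33, an IL-1 family member, read 10.2, 10.1 and 10.2 in LC-HFD and 10.2, 10.4 and 10.2 in LC-RD. The groups overlapped, with a difference of −0.04 (95% interval −0.24 to 0.17, adjusted p = 0.769). Its values were far above background, and the interval leaves out a change as large as that of Il1b. Tnf, which encodes tumor necrosis factor, read 4.60, 4.34 and 4.49 in LC-HFD and 4.06, 4.16 and 4.64 in LC-RD. LC-RD replicate 3 lay above all the LC-HFD arrays and the other LC-RD arrays below them. The difference was 0.19 (95% interval −0.18 to 0.56, adjusted p = 0.407), and 0.37 without that array (adjusted p = 0.0655).

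**Figure D2:**
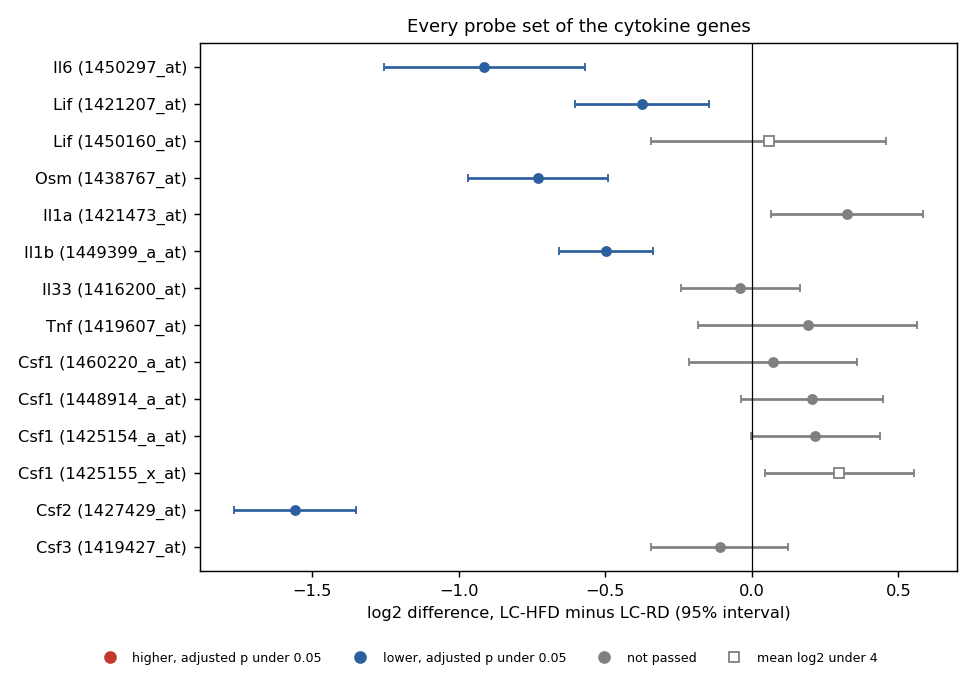
Log2 difference of LC-HFD minus LC-RD (horizontal axis) with its 95% interval for each of the 14 probe sets. Blue marks an adjusted p under 0.05 with lower values in LC-HFD, grey marks probe sets that did not pass, and open squares mark a mean log2 value under 4. Csf2 lies farthest from 0 at −1.56.

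Most receptors and natural antagonists of these cytokines did not pass. Among 15 measured genes 1 rose, 1 fell and 13 stayed below the threshold, or 6.67% in each direction against 11.1% higher and 16.2% lower over all genes. The median log2 difference was 0.08. Il1rl1, the receptor of IL-33, was not analysed here.

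Tnfrsf1b, which encodes the TNF receptor TNFR2 of immune and endothelial cells, rose in LC-HFD lungs. It read 8.11, 8.18 and 8.19 in LC-HFD and 7.65, 7.62 and 7.63 in LC-RD. It differed by 0.53 on the log2 scale (standard error 0.0683, limma adjusted p = 0.00253). Its other probe set gave 0.53 (adjusted p = 0.00446). Both probe sets separated the groups, and the lead passed in all 16 alternatives. Tnfrsf1a, which encodes TNFR1 of most cell types, gave 0.16 and did not pass (adjusted p = 0.134).

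Lifr, the receptor chain that LIF requires, was lower. It read 8.38, 8.12 and 8.35 in LC-HFD and 8.58, 8.61 and 8.62 in LC-RD (−0.32, standard error 0.0903, limma adjusted p = 0.0393). The groups were apart, but the call was lost in 10 of 16 alternatives, and 5 of its 6 fits without a single array lost it (all but that without LC-HFD replicate 1). Its other probe sets gave −0.15 and 0.16, and neither passed.

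The remaining receptor chains of the IL-6 family did not pass on their brightest probe sets. Il6ra, the receptor that binds IL-6, gave 0.13 (95% interval −0.06 to 0.31), and Il6st, which encodes gp130, 0.07 (−0.09 to 0.23). The other probe set of Il6ra gave 0.56 with a wide interval (−0.02 to 1.13, limma adjusted p = 0.136) and did not pass. Osmr, the OSM receptor chain, gave 0.14 on the brightest probe set (adjusted p = 0.209) and 0.46 on another, that passed (adjusted p = 0.0342).

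Nor did the genes that receive or block IL-1 pass on their lead probe sets. Il1r1, the signaling receptor, gave 0.12 and its partner Il1rap −0.05, while the decoy receptor Il1r2 gave 0.07 and the antagonist Il1rn 0.05 (adjusted p of 0.237, 0.647, 0.789 and 0.737). Of the 5 probe sets of Il1rap 1 passed, with −0.33. The other probe sets of Il1rn gave −0.09 and 0.36 and did not pass. Il1b minus Il1rn within an array was −0.46, −0.27 and −0.54 in LC-HFD and 0.11, 0.06 and 0.20 in LC-RD, a pair chosen after its values were seen and given with no test.

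For the colony-stimulating factors, the chains that bind GM-CSF did not pass on their brightest single-gene probe sets. Csf2ra gave 0.11 (95% interval −0.08 to 0.31), Csf2rb, the shared β chain, 0.08 (−0.08 to 0.24) and Csf2rb2, the β chain specific to IL-3 in mice, 0.03 (−0.14 to 0.20). A further probe set that the annotation gives to both Csf2rb and Csf2rb2, and which therefore stands for neither alone, passed as higher. It read 7.26, 7.33 and 7.36 in LC-HFD and 6.49, 6.12 and 6.46 in LC-RD (0.96, standard error 0.113, limma adjusted p = 0.00182). The probe sets for the β chains thus disagreed, and the second one of Csf2rb alone gave −0.06 (adjusted p = 0.588). Csf1r, the receptor of CSF1 and a marker of macrophages, gave −0.03 on its brightest probe set and 0.40 and 0.36 on the others (adjusted p of 0.785, 0.0125 and 0.0264). Its probe sets disagreed as well. Csf3r, the G-CSF receptor of neutrophils, gave 0.33 (adjusted p = 0.0867).

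**Figure D3:**
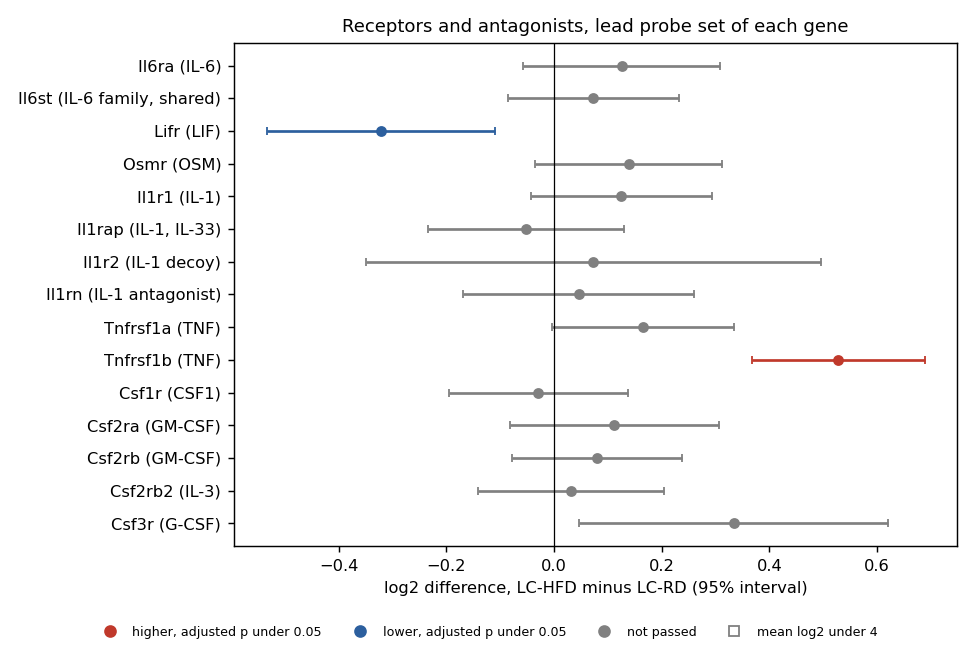
Log2 difference of LC-HFD minus LC-RD (horizontal axis) with its 95% interval for the lead probe sets of 15 receptors and antagonists, with the ligand in parentheses. Red is higher and blue lower at an adjusted p under 0.05, and grey did not pass. Tnfrsf1b and Lifr are the genes past the threshold.

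Genes that mature cytokine precursors or control the decay of their mRNAs moved in both directions. Of 18 measured, 4 rose, 5 fell and 9 did not pass, which is 22.2% and 27.8% against 11.1% and 16.2% of all genes. Zfp36 encodes tristetraprolin, which binds AU-rich elements in cytokine mRNAs such as those of Tnf and Csf2 and speeds their decay. It read 8.41, 8.35 and 8.55 in LC-HFD and 9.20, 9.29 and 9.26 in LC-RD (−0.81, standard error 0.0815, limma adjusted p = 0.00106). Its relatives Zfp36l2 and Zfp36l1 fell by 0.69 and 0.46 on their lead probe sets (adjusted p of 0.00105 and 0.0136). Other probe sets gave 0.30 and −0.06 for Zfp36l2 and 0.08 for Zfp36l1. The one at 0.30 passed as higher (limma adjusted p = 0.0398), so probe sets of Zfp36l2 passed in opposite directions. Khsrp, which encodes another protein of AU-rich mRNA decay, rose by 0.67 (adjusted p = 0.00158), with 0.57 and 0.04 on its other probe sets. Its lead is an x_at set, which may also bind related sequences. The one at 0.57 is not an x_at set and passed as well (limma adjusted p = 0.00231). The lead probe sets of Zfp36, Zfp36l2 and Khsrp passed in all 16 fits, and that of Zfp36l1 lost its call with the 3' minus 5' covariate.

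Among the genes of cytokine processing, Pycard, the adaptor through which inflammasomes engage caspase-1, fell by 0.46 on its lead probe set (adjusted p = 0.00618). The other probe sets of Pycard, near background, gave −0.05 and −0.10 and did not pass. Furin, a protease that cleaves many precursors, rose by 0.45 (adjusted p = 0.00888). For Pycard the LC-HFD arrays read 8.06, 8.07 and 8.22 and the LC-RD arrays 8.57, 8.56 and 8.58, and for Furin 8.77, 8.64 and 8.76 in LC-HFD and 8.20, 8.38 and 8.25 in LC-RD. The groups were apart for both. With the 3' minus 5' covariate Pycard lost its call and Furin kept it.

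Among 36 other cytokine genes with a probe set, 2 rose, 9 fell and 25 did not pass, or 5.56% higher and 25.0% lower against 11.1% and 16.2% of all genes. A mean log2 value under 4 was found for 20 of the 36, so most of them were near background, among them Il17a (2.99), called higher. In the fit with a minimum mean of 4, 16 of the 36 were tested, and 8 fell and 2 rose. Of the 10 genes described here, 5 were lower and 1 was higher in that fit. Among all probe sets with a mean from 4 to 7, 19.8% were called lower and 13.3% higher in the main fit. The largest called differences above a mean of 4 were decreases. Clcf1, an IL-6 family ligand, gave −0.68 (adjusted p = 0.0213), but 0.05 and 0.36 on its other probe sets, the last of which passed as higher. Its call was lost in 5 of 16 fits, 2 of them without LC-RD replicate 2 or 3. Il16, which encodes a lymphocyte attractant, gave −0.68 (adjusted p = 0.00902), with values of 5.03 to 5.46 in LC-HFD and 5.94 to 6.01 in LC-RD, while its other 3 probe sets did not pass. It lost its call in 1 of 15 fits, the t-test of the methods (0.0508).

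Members of the TNF superfamily were among those called lower. Tnfsf13b, which encodes the B cell survival factor BAFF, read 6.39, 6.18 and 6.36 in LC-HFD and 6.80, 6.83 and 6.94 in LC-RD (−0.55, adjusted p = 0.00557), and lost its call with the 3' minus 5' covariate. Its other probe sets gave −0.35 and 0.18 and did not pass. Ltb, which encodes lymphotoxin β, gave −0.41 (adjusted p = 0.0173), and Tnfsf10, which encodes TRAIL, −0.35 (adjusted p = 0.0211). Both calls were unsteady: Ltb lost its call in 4 of 15 fits, among them those without LC-RD replicate 1 or 2, and Tnfsf10 in 6 of 16, among them those without LC-HFD replicate 2 or 3 or LC-RD replicate 1 or 2. Kitl, the ligand of the mast cell and stem cell receptor KIT, gave −0.49 on its brightest probe set (adjusted p = 0.00647), with −0.61, 0.50 and 0.14 on the others. Probe sets of Kitl thus passed in opposite directions. Il3, separated from Csf2 by 0 protein-coding genes, read 2.44, 2.59 and 2.54 in LC-HFD and 2.28, 2.19 and 2.43 in LC-RD, near background on every array.

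**Figure D4:**
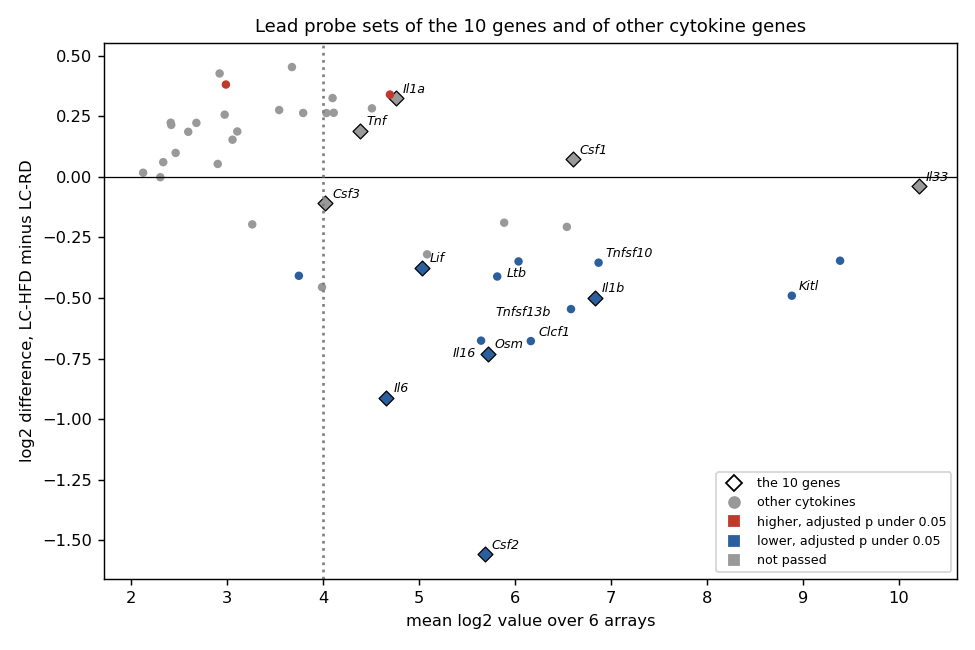
Log2 difference of LC-HFD minus LC-RD (vertical axis) against the mean log2 value over 6 arrays (horizontal axis) for the lead probe sets of the 10 genes (diamonds) and 36 other cytokine genes (circles). Red is higher and blue lower at an adjusted p under 0.05, grey did not pass, and the dotted line marks a log2 of 4. Csf2, at −1.56, lies below all other cytokine genes drawn.

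Markers of cells that can make these cytokines were read beside them. Of 4 measured neutrophil markers 2 were lower, S100a8 (−0.85) and S100a9 (−0.92), and their list mean was 6.52 to 6.62 in LC-HFD and 6.84 to 7.04 in LC-RD (exact permutation p = 0.1, two-sided, the smallest that 3 against 3 arrays allow). Cxcr2 and Mmp8, also made by neutrophils, gave 0.26 and −0.11 and did not pass. Of 7 macrophage markers 2 were higher, Marco (0.77) and Chil3 (0.29), 0 were lower, and the list mean was 9.88 to 9.93 in LC-HFD and 9.79 to 9.82 in LC-RD. Cd68 (0.11), Adgre1 (−0.0036), Mrc1 (−0.02), Lyz2 (−0.14) and Siglecf (−0.32) did not pass. Neutrophils and macrophages can both make Il1b and Osm, and their part in the lower values of these genes was not tested.

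The 6 T cell and innate lymphoid markers, from cells that can make Csf2, held 1 lower gene, Il7r (−0.49), and their list mean overlapped between LC-HFD (4.87 to 5.12) and LC-RD (4.98 to 5.05). By lead probe sets, the 4 alveolar type II markers held 1 higher gene, Abca3 (0.30), and 0 lower. Their list mean came to 12.1 for LC-HFD and 12.0 for LC-RD. Other probe sets of Abca3 gave −0.11 and −0.49, and the one at −0.49 passed as lower (limma adjusted p = 0.0195). Etv5 gave −0.14 on its lead and did not pass. Its other probe sets gave −0.37 and −0.48 and passed as lower (limma adjusted p of 0.0110 and 0.00401). Sftpc had a dim probe set, with a mean log2 value of 3.06, that passed as higher (1.45). All 6 mast cell and basophil markers were near background, with means under 4 in each group. Of 4 platelet markers 2 were lower, Ppbp (−2.27) and, by far less, Pf4 (−0.33). Gp9 (−0.18) and Itga2b (0.15) did not pass. The list mean was 5.68 to 5.89 in LC-HFD and 6.41 to 6.49 in LC-RD. Lists of some other cells were lower as well. Of 4 club cell markers 3 were lower, Cbr2 by the most (−0.93), with a list mean of 11.8 in LC-HFD and 12.2 to 12.3 in LC-RD. Of 4 mesothelial markers 3 were lower, Upk3b by the most (−0.61), with 5.41 to 5.69 in LC-HFD and 5.90 to 6.02 in LC-RD. Of 4 cardiac muscle markers 2 were lower, Myl7 by the most (−1.36), with 3.91 to 3.99 in LC-HFD and 4.34 to 4.58 in LC-RD. Fibroblast markers held 1 higher and 2 lower genes of 4, with 9.05 to 9.06 in LC-HFD and 9.07 to 9.10 in LC-RD. Endothelial markers also held 1 higher and 2 lower of 4, and B cell markers 1 higher and 1 lower of 3. For both the list means overlapped between groups, as they did for alveolar type I, NK cell and erythroid markers. Adipocyte markers held 1 higher and 0 lower of 3, with 3.80 to 3.90 in LC-HFD and 3.37 to 3.67 in LC-RD. The higher one, Adipoq (0.70), was near background with a mean log2 value of 2.97. Lep (0.05), also near background, and Cidec (0.18), with a mean of 5.30, did not pass. The part of these cells in the cytokine differences was not tested.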

How the data were processed

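Each of 6 lungs (3 LC-HFD, 3 LC-RD) was measured on its own array. The authors deposited log2 values, 1 per probe set and array, without pooling. GCRMA is listed in the submitters' processing notes (it models nonspecific binding by base content, then applies quantile normalization), and Partek in the methods, both without version. GCRMA draws dim probe sets toward a common floor, which makes folds near background uncertain. The number of arrays limits the precision, and mice had a median SD of 0.137 (LC-HFD) and 0.0943 (LC-RD). No sample column was left unused (0).

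The 64 control probe sets were kept apart from the 45037 tested. Probe sets were named through the platform annotation, updated by Entrez ID: 34958 had 1 gene, 932 had several (left out of gene counts) and 9211 had none. The test was limma 3.58.1 (R 4.3.3), two-sided, with Benjamini-Hochberg adjustment over all 45037. The step was tested on simulated data first. Named genes were all 10 members, the receptors and antagonists, and from each other list up to 6 called genes with the largest difference and a mean log2 value of at least 4. Members and lists were chosen with earlier results of these data known, and the background from 4 to 7 was added after the data were seen. Listed genes that no single-gene probe set covers were not analysed here. Alternatives were the methods' t-test, array weights, robust variance with an intensity trend, quantile normalization, median centering, minimum means of 4 and 6, a floor of 4, the 3' minus 5' covariate, a replicate block, each array left out, the median over a gene's probe sets and a 2-fold threshold. The labels do not say that equal replicate numbers pair mice. Figures were drawn with Python 3.11.15 and matplotlib 3.10.9.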

Additional observations from a re-analysis of the deposited data

How the results depend on the processing

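At the adjusted p alone, Csf2, Osm and Il1b kept their direction and call in every fit that tested them, Il6 in all but the 3' minus 5' covariate, and Lif in 9 of 16. With a 2-fold threshold Csf2 alone kept its call, and a minimum mean of 6 left Csf2, Osm, Il6 and Lif untested. Members called lower were 5 by limma, 1 of 3 left with a minimum mean of 6, 3 with the covariate, 1 with a 2-fold threshold and 4 to 5 without single arrays. Members called higher were 0, and 1 (Il1a) with array weights, a minimum mean of 4 or a floor of 4, and 0 to 1 without single arrays. Counted over the 14 probe sets, the numbers were the same under each of these settings. Receptor and antagonist genes called higher were 1, against 3 with an intensity trend, 2 with quantile normalization, a minimum mean of 6, a floor of 4 or the covariate, 0 with 2-fold, and 1 to 2 without single arrays. Those called lower were 1, against 0 with the t-test, quantile normalization, median centering, the replicate block, the covariate and 2-fold, and 0 to 1 without single arrays. Processing and decay genes called higher were 4 (2 with the covariate, 0 with 2-fold, 3 to 4 without single arrays) and lower 5 (2, 0, and 4 to 5). Other cytokine genes called higher were 2, against 0 with the t-test, a minimum mean of 6, the replicate block, the covariate and 2-fold, 1 with an intensity trend, 4 with median centering, and 0 to 2 without single arrays. Those called lower were 9, against 4 with the replicate block, 2 with the covariate, 0 with 2-fold, and 4 to 10 without single arrays. The cause of these changes was not tested, other than that a minimum mean leaves fewer genes.

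Differences that changed sign all belonged to probe sets that had not passed, one of them the dim probe set of Lif, a gene called on its brighter one. With the covariate Csf3 gave 0.0577, Il33 0.0747, Il1rap 0.0421 and the dim probe set of Lif −0.147. Quantile normalization gave 0.0241 for Il1rap and −0.0301 for that probe set of Lif. Without single arrays the ranges were −0.0449 to 0.136 for Csf1, −0.0891 to 0.193 for the dim Lif probe set, −0.0740 to 0.0284 for Il33, −0.0875 to 0.286 for Il1r2, −0.0049 to 0.127 for Il1rn and −0.00025 to 0.0627 for Csf2rb2. The replicate block changed no member's call: all 5 lower members passed with it (Csf2 −1.56, Il6 −0.91, Lif −0.37). The correlations of same-numbered deviations from the group means were −0.04, −0.09 and −0.03. With 3 arrays a group such values cannot settle whether mice were paired, and the labels do not say. The 3 arrays per group and the closeness of Il6, Lif, Il1a, Tnf and Csf3 to background limit what could be detected.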
